A study of Mus musculus with 4 samples.

Results

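The RNA of 10 surface proteins that are widely used to sort stem-like, progenitor and tumour-initiating cells was followed in breast cancer cells from MMTV-Neu mice with and without the kinase Pak1. The genes were Cd24a, Cd44, Ly6a (Sca-1), Ly6c1, Ly6d, Ly6e, Prom1 (CD133), Epcam, Procr (the endothelial protein C receptor) and Thy1 (CD90). They were found by the gene name that the array files give to each non-control probe, and are 10 of the 31896 gene names on the array. Together they had 15 probes, each 60 bases long, and the brightest probe of a gene over the 4 arrays stands for that gene.

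The 4 samples were tumour-derived breast cancer cells in 2 groups of 2. One group was Pak1-/- and the other Pak1+/+, and the samples of a group came from separate tumours. All of them carried the MMTV-Neu transgene, in which a mammary tumour virus promoter drives the rat Her2 homologue in mammary epithelium. All had been starved of serum for 3 h and then given EGF for 15 min, so no untreated cells are part of the comparison. The age of the mice and whether a culture was 1 clone are not given in the sources used here.

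The markers fall into a few structural kinds. The Ly6 proteins and Thy1 are small proteins held in the outer membrane leaflet by a glycosylphosphatidylinositol (GPI) anchor, and so is the heavily glycosylated Cd24a. Prom1 crosses the membrane several times and sits on membrane protrusions, Cd44 binds hyaluronan and is spliced into many forms, Epcam joins epithelial cells to each other, and Procr binds protein C. In the mammary gland, combinations of Cd24a with other surface proteins separate epithelial from stromal cells and basal from luminal cells. The arrays measured RNA and say nothing of how much protein was on the surface.

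Prom1, Cd44 and Ly6c1 had more than 1 probe, and the way the probes of a gene behave together is part of the result. The second probes of Prom1 and Ly6c1, the pair of Cd44 probes nearest to the start of the gene, and the only Epcam probe are shown here, since the comparisons below turn on them. They are written 5′ to 3′ on the strand of the gene, as the array files give them, in lower case throughout because no base is singled out, with positions on mm9. The Prom1 probe lies at chr5:44397410-44397469 on the minus strand, the Cd44 probes at chr2:102677971-102678030 and chr2:102672645-102672704 on the minus strand, the Ly6c1 probe at chr15:74877785-74877844 on the minus strand, and the Epcam probe in pieces between the ends of chr17:88048972-88049800 on the plus strand.
Prom1 A_52_P402786: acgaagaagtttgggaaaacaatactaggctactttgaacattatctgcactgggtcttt
Cd44 A_55_P2166488: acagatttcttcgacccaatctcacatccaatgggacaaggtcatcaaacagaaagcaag
Cd44 A_55_P2166486: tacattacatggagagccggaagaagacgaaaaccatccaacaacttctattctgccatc
Ly6c1 A_55_P1961499: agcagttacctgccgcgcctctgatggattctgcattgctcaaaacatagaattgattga
Epcam A_52_P447944: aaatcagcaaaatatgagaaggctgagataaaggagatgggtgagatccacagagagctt

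The deleted gene was looked at first. The Pak1 probe read 12.21 and 12.25 on the arrays labelled Pak1-/- and 12.04 on both arrays labelled Pak1+/+, in normalized log2 intensity. It was thus not lower in the arrays labelled Pak1-/- (difference 0.19, SE 0.07, adjusted p = 0.070), and every direction given here goes by the labels. Whether this probe lies outside the deleted part of the gene was not tested. The arrays were alike in median spot intensity (322 to 331), and correlated at 0.997 within each group and at 0.954 to 0.959 between groups. The share of probes well above background was 70.4% and 68.2% on the Pak1-/- arrays. It was lower, 67.7% and 62.2%, on the Pak1+/+ arrays. All 4 lay on 1 slide, with the genotypes on separate neighbouring positions, so position and genotype cannot be told apart.

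Prom1 and Procr were higher in the Pak1-/- cells, and Cd44, Ly6a and Ly6c1 were lower. Cd24a, Epcam and Ly6d did not pass the threshold. Ly6e was saturated on 3 of the 4 arrays, so that its difference is not read, and Thy1 was too dim to test. The other 8 genes were well above background on 4 of 4 arrays with no saturated spot. Of all 22006 genes tested on these arrays, 22.8% were called higher and 28.2% lower at an adjusted p under 0.05, so that 51% were called in either direction. The markers' 2 higher and 3 lower of these 8 therefore stand near the background of the whole array. For 7 of the 8, every array of one genotype lay beyond every array of the other, against 77.5% of all genes. Their median log2 difference, Pak1-/- minus Pak1+/+, was -0.10, against -0.05 for all genes, while the median size of the difference regardless of sign was 0.61, against 0.32 for all genes.

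**Figure D1:**
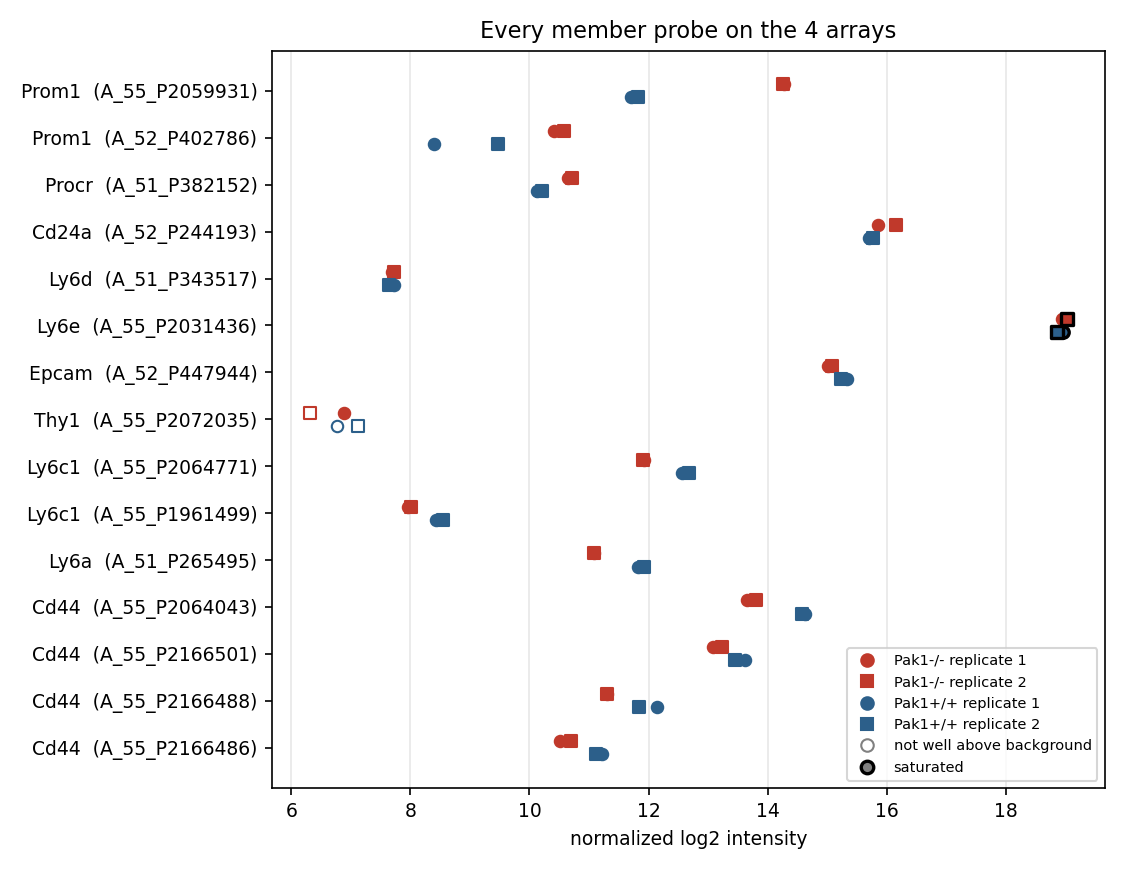
Normalized log2 intensity (horizontal axis) of the 15 probes of the 10 markers on each of the 4 arrays, by group (colour) and replicate (shape); open symbols are spots not well above background and black rims saturated spots. The groups lie farthest apart for the brighter Prom1 probe (14.27 and 14.25 against 11.71 and 11.82), and levels of different probes cannot be compared with each other.

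Prom1 showed the largest difference of the 8 markers whose difference could be read. Its brighter probe read 14.27 and 14.25 in the Pak1-/- cells and 11.71 and 11.82 in the Pak1+/+ cells. Both Pak1-/- values lay far above both Pak1+/+ values, and replicates of a group differed by little. The log2 difference was 2.50 (SE 0.08, 95% interval 2.30 to 2.70, adjusted p = 0.000115), a 5.65-fold higher level that ranked 325 among the 22006 genes ordered from the most increased.

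The second Prom1 probe, the one printed above, went the same way with a wider spread. It read 10.41 and 10.58 in the Pak1-/- cells and 8.39 and 9.47 in the Pak1+/+ cells. The groups did not overlap, and the Pak1+/+ replicates stood 1 log2 unit apart. The log2 difference was 1.57 (SE 0.37, 95% interval 0.60 to 2.53, adjusted p = 0.022). The call was lost without Pak1-/- replicate 1 (adjusted p = 0.097) and without Pak1-/- replicate 2 (adjusted p = 0.11), and without Pak1+/+ replicate 1 the log2 difference was 1.03.

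Procr, the receptor through which protein C is activated on endothelium and which also marks a population of mammary stem cells, was modestly higher. Its only probe, at chr2:155580945-155581004 on the plus strand, read 10.65 and 10.71 in the Pak1-/- cells and 10.13 and 10.21 in the Pak1+/+ cells. The groups were separated by several times the distance between replicates. This is a 1.42-fold higher level (log2 difference 0.51, SE 0.07, adjusted p = 0.0051), with 0.47 to 0.59 over 14 alternative settings, all past the threshold.

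Cd44, the hyaluronan receptor, was lower in the Pak1-/- cells on all 4 of its probes. The brightest probe, at chr2:102651398-102651457, read 13.66 and 13.81 in the Pak1-/- cells and 14.62 and 14.57 in the Pak1+/+ cells. All Pak1-/- values were below all Pak1+/+ values, and the log2 difference was -0.86 (SE 0.08, adjusted p = 0.0017), a 1.82-fold lower level. This probe holds a run of 24 bases that is also in a probe for Tomm34, a mitochondrial import gene, and the Tomm34 probe itself averaged 13.97 in the Pak1-/- and 13.89 in the Pak1+/+ cells, with no difference past the threshold. Whether Tomm34 RNA binds the Cd44 probe was not tested.

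The other Cd44 probes differed in size. The probe at chr2:102654278-102654337 read 13.09 and 13.24 against 13.62 and 13.45, a log2 difference of -0.37 (SE 0.10, adjusted p = 0.032). This was the smallest of the 4 and the least stable, losing its call in 6 of 14 alternatives. The probe at chr2:102677971-102678030 read 11.31 on both Pak1-/- arrays and 12.14 and 11.84 on the Pak1+/+ arrays (log2 difference -0.68, SE 0.12, adjusted p = 0.0092). It missed the threshold without either Pak1-/- array (adjusted p = 0.055 without replicate 1 and 0.052 without replicate 2).

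The fourth Cd44 probe, at chr2:102672645-102672704, read 10.52 and 10.70 in the Pak1-/- cells and 11.22 and 11.11 in the Pak1+/+ cells. Its log2 difference of -0.56 (SE 0.10, adjusted p = 0.0085) passed the threshold in all 14 alternatives. Relative to the brightest probe on the same array, this probe stood at -3.12 ± 0.02 in the Pak1-/- cells and at -3.42 ± 0.05 in the Pak1+/+ cells (log2, SD, n = 2 each). The probe at chr2:102654278-102654337, measured the same way, stood at -0.57 ± 0.0003 and -1.06 ± 0.08. The probe at chr2:102677971-102678030 stood at -2.42 ± 0.11 and -2.60 ± 0.18, a shift within its spread. These shifts were not tested, and which Cd44 transcripts each probe reads was not mapped here.

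**Figure D2:**
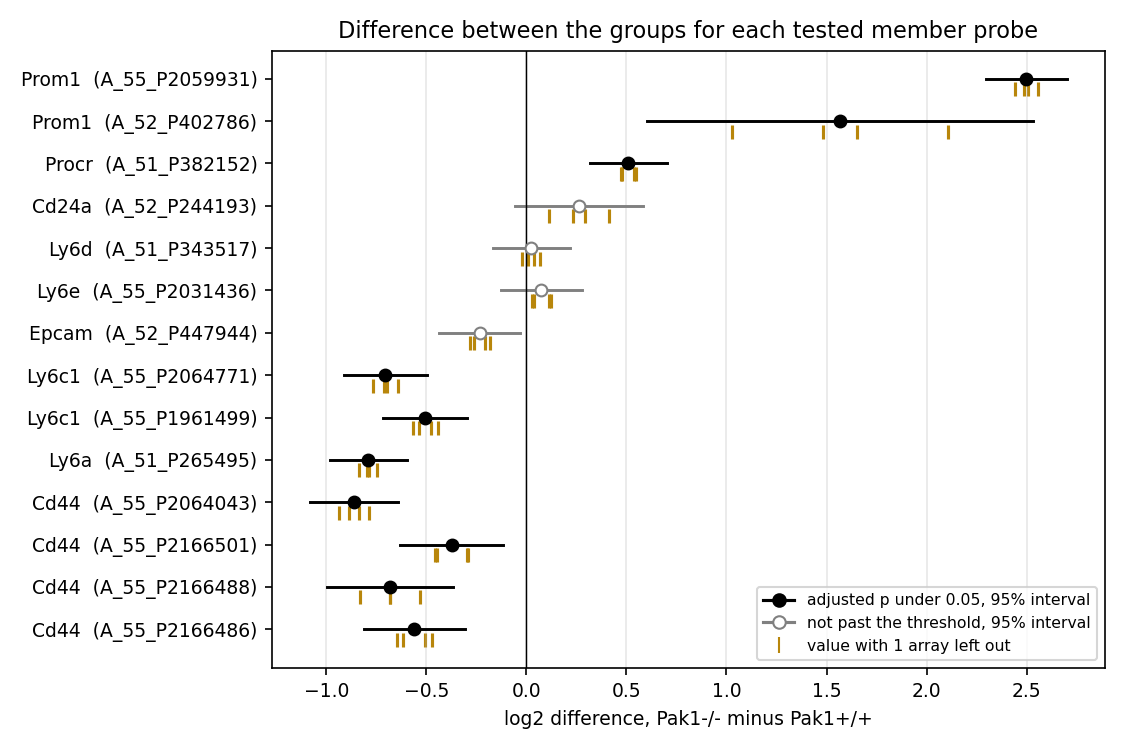
Log2 difference (horizontal axis, Pak1-/- minus Pak1+/+) for the 14 probes of the markers in the fit (the Ly6e probe, saturated on 3 of the 4 arrays, is drawn but not read), with the 95% interval of the limma fit; filled points had an adjusted p under 0.05, and gold ticks give the value with 1 of the 4 arrays left out. The 4 Cd44 probes lie between -0.86 and -0.37, and the ticks of the dimmer Prom1 probe spread from 1.03 to 2.11.

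Ly6a and Ly6c1, neighbouring GPI-anchored genes of chromosome 15, were both lower in the Pak1-/- cells. Ly6a, the Sca-1 antigen of blood and mammary progenitors, read 11.08 and 11.09 in the Pak1-/- cells and 11.83 and 11.92 in the Pak1+/+ cells, from a probe at chr15:74825553-74825612. The groups did not overlap and the replicates were close. Ly6a was thus 1.73-fold lower (log2 difference -0.79, SE 0.07, adjusted p = 0.0015).

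Ly6c1, best known from monocytes and endothelial cells, read 11.92 and 11.90 in the Pak1-/- cells and 12.55 and 12.68 in the Pak1+/+ cells on its brighter probe, at chr15:74875495-74875554. The log2 difference was -0.70 (SE 0.08, adjusted p = 0.0024), a 1.63-fold lower level. Its second probe, printed above, read 7.95 and 8.01 against 8.43 and 8.55, a log2 difference of -0.51 (SE 0.08, adjusted p = 0.0068). Both probes thus gave the same direction with no overlap. No probe here carries the name of Ly6c2, a near-identical copy of Ly6c1, so how much of this signal comes from the copy was not tested.

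Ly6d, a marker of lymphoid and some epithelial progenitors, was level across the arrays. It read 7.69 and 7.72 in the Pak1-/- cells and 7.73 and 7.63 in the Pak1+/+ cells, and the groups overlapped. Its log2 difference was 0.02, and the 95% interval ran from -0.17 to 0.22 (adjusted p = 0.80). The probe was weak, though well above background on all 4 arrays. The offset understates changes of such probes, and with an offset of 0 the log2 difference was 0.03.

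Ly6e was bright enough to saturate the scanner. It read 18.94 and 19.02 in the Pak1-/- cells and 18.95 and 18.86 in the Pak1+/+ cells, with saturated spots on Pak1-/- replicate 2 and on both Pak1+/+ arrays. The groups overlapped, and since both levels rest on saturated spots and are lower bounds, no fold and no difference is read from them. Its sign also turned with the scaling of the arrays.

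Cd24a and Epcam, the general epithelial markers of the list, differed little. Cd24a read 15.84 and 16.15 in the Pak1-/- cells and 15.70 and 15.76 in the Pak1+/+ cells. The groups did not overlap, but the Pak1-/- replicates were farther from each other than the lower one was from the Pak1+/+ cells (log2 difference 0.26, SE 0.12, 95% interval -0.06 to 0.58, adjusted p = 0.14). Single arrays moved the value: it was 0.41 without Pak1-/- replicate 1 (adjusted p = 0.035) and 0.11 without Pak1-/- replicate 2 (adjusted p = 0.33). The scaling did so too, with 0.35 after cyclic loess (adjusted p = 0.049) and 0.11 on processed signals scaled to the 75th percentile (adjusted p = 0.54).

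Epcam read 15.01 and 15.07 in the Pak1-/- cells and 15.33 and 15.23 in the Pak1+/+ cells. The log2 difference was -0.23 (SE 0.08, 95% interval -0.43 to -0.03, adjusted p = 0.058), just outside the threshold. It passed in 4 of 14 alternatives, at adjusted p-values from 0.022 to 0.048, and was -0.11 after cyclic loess (adjusted p = 0.27). Both genes were well above background on all 4 arrays.

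Thy1, a GPI-anchored protein of T cells, fibroblasts and some mammary stem-like cells, was near background. Its probe read 6.88 and 6.31 in the Pak1-/- cells and 6.77 and 7.12 in the Pak1+/+ cells, and it was well above background only on Pak1-/- replicate 1. The groups overlapped and no fold is given.

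The chromosome 15 markers were set in their neighbourhood, since Ly6a, Ly6c1, Ly6d and Ly6e all lie in one cluster of Ly6 genes. Between the outermost family probes (chr15:74546879-75428543) lay 39 probes with 34 names, and 22 of the probes could be tested. Of these, 9 were lower in the Pak1-/- cells and 1 was higher, while 12 did not pass the threshold, the saturated Ly6e counted among them, and 11 of the 39 were dim on all arrays. Over all genes, 28.2% were lower and 22.8% higher, and nothing is read here from the difference between these shares. From NAP101442-1 through Ly6a, both probes of Ly6c1, Ly6g and ENSMUST00000089689 to 9030619P08Rik, the 7 tested probes in a row were all lower, a stretch picked out after its values were seen.

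NAP101442-1, about which the files give no more than this name, lay on the same strand as Ly6a at chr15:74817388-74817449 and had the largest difference of the cluster. It read 7.91 and 7.93 in the Pak1-/- cells and 10.31 and 9.91 in the Pak1+/+ cells (log2 difference -2.19, adjusted p = 0.00067). Ly6g, the neutrophil antigen, read 6.81 and 7.01 against 7.92 and 8.10 (log2 difference -1.10, adjusted p = 0.0018) and was well above background on 3 of the 4 arrays. Neither pair of groups overlapped.

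The remaining lower probes of the cluster were Them6 (log2 difference -0.76), the transcript ENSMUST00000089689 (-0.55), 9030619P08Rik (-0.58) and Gpihbp1 (-0.35), which carries lipoprotein lipase across capillary endothelium. The 1 higher probe was BB157357 (0.59). Slurp1 (-0.50), Lypd2 (0.48), Slurp2 (-0.22), Lynx1 (0.17), Ly6k (-0.14), Gml (-0.08), Gml2 (-0.21), Ly6m (0.24), Ly6i (-0.19) and Ly6h (0.12) had log2 differences that did not pass the threshold, nor did Ly6d. Psca, Cyp11b1, Cyp11b2, Gm3389, Gm6617, LOC100045833, I830127L07Rik, Gm3124, LOC100045861, ENSMUST00000055719, Ly6f, Gm3142 and LOC672552 were too dim to test.

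**Figure D3:**
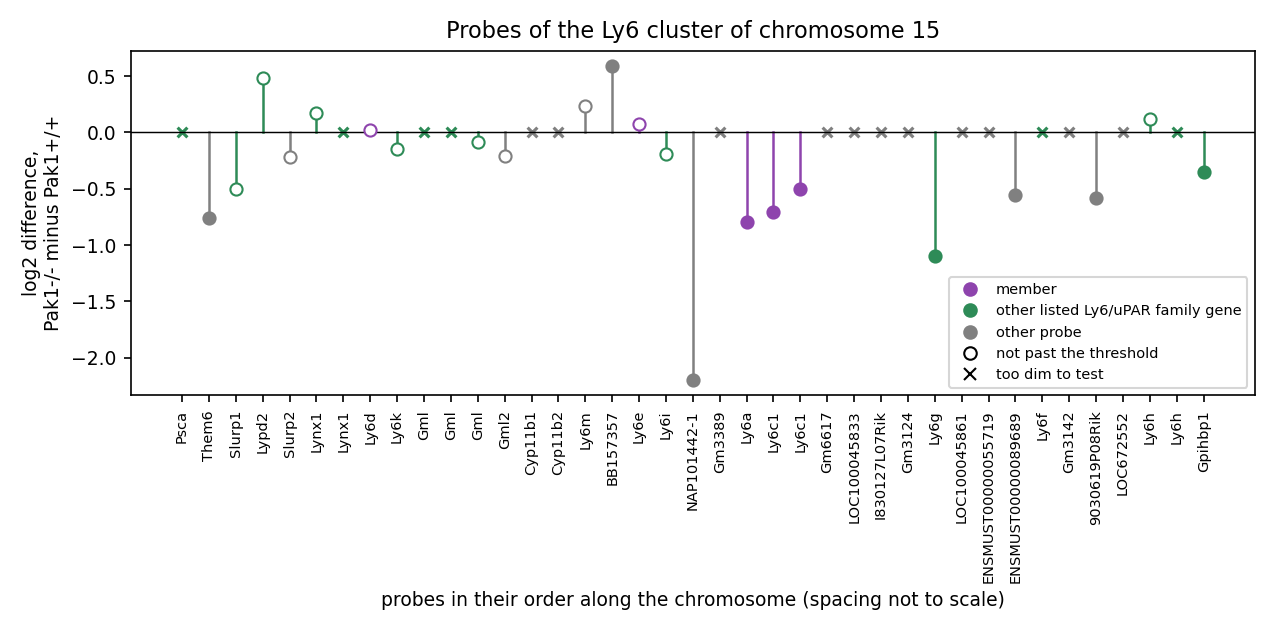
Log2 difference (vertical axis, Pak1-/- minus Pak1+/+) of the 39 probes of the chromosome 15 Ly6 cluster in their order along the chromosome (horizontal axis, not to scale); purple marks the markers described here, green other listed family genes, open circles probes that missed the threshold and crosses probes too dim to test. Ly6a, both Ly6c1 probes and Ly6g lie below 0, and Ly6d lies near 0.

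The other Ly6/uPAR family genes were listed both from this cluster and from elsewhere in the genome, so that Ly6g and Gpihbp1 are counted here again. Of 32 listed genes, 31 had a probe and 21 could be tested: 4 were higher, 6 lower and 11 not past the threshold, with a median log2 difference of -0.14. These counts are near the shares of all genes (22.8% higher and 28.2% lower), against which the counts of the lists that follow are to be read as well. Cd177, a neutrophil surface glycoprotein, fell by 5.20 on the log2 scale (14.23 to 9.03 in group means, adjusted p = 4.2e-05). Pinlyp (-1.18), Ly6g6c (-0.59) and Gpihbp1 were lower too, while Lypd3 (1.81), Cd59a (0.75), which blocks the complement attack complex, Ly6g6d (0.58) and Ly6g5b (0.51) were higher.

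Of the enzymes that build the GPI anchor of these proteins, all 29 listed were tested, and 5 were higher, 11 lower and 13 not past the threshold (median log2 difference -0.12). Over all genes 51% were called in either direction, 22.8% higher and 28.2% lower. Piga, the catalytic subunit of the first step, was lower by a log2 difference of -0.89, as were Pigg (-0.85), Pigf (-0.77) and Pigh (-0.71). Pigk, the catalytic subunit of the transamidase that attaches the anchor, was higher (0.88), as were Pigv (0.86), Pgap3 (0.60) and Pigp (0.49).

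Several of the Ly6 markers, Ly6a and Ly6e above all, are known to be induced by interferon, and the interferon response genes were high in the Pak1-/- cells. All 26 listed genes were called higher, with a median log2 difference of 5.40. Oas2 (8.01), Ifit3 (7.66), Ifit1 (7.25) and Oas1a (7.22) changed most among those measured on every array, and Rsad2 was at least 85.2-fold higher. The summed intensity of the list was 20.40 and 20.26 in the Pak1-/- cells and 15.60 and 15.79 in the Pak1+/+ cells, on the log2 scale. On the same arrays Ly6a and Ly6c1 were lower, and Ly6e was saturated on 3 of the 4 arrays and its direction is not known.

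Other stem and progenitor markers were tested beside the 10 (37 listed, 33 tested). Of these, 14 were higher, 6 lower and 13 not past the threshold, with a median log2 difference of 0.24. Tspan12 (3.17), Cd200 (2.40), Klf4 (1.97) and the integrin Itga2 (1.17) were higher. Cd14 (-1.70), Aldh1a1 (-0.70) and Kit (-0.61) were lower. Aldh1a3, well above background on 3 of the 4 arrays, went the other way from Aldh1a1 and was higher (1.68). Prom2, the paralogue of Prom1, was lower by a log2 difference of -3.54, the opposite direction from Prom1.

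Of the known partners of Cd44 (23 listed, 20 tested), 8 were higher, 3 lower and 9 not past the threshold, with a median log2 difference of 0.15. Hyal1 (2.34) and Tmem2 (1.07), which degrade hyaluronan, were higher, as were the matrix proteoglycan Vcan (0.77) and Ezr (0.70), which ties Cd44 to actin. Has2 (0.64), which makes hyaluronan, was higher too. Mmp14, well above background on 3 of the 4 arrays, had the largest difference of the list (7.76). The Cd44 ligand Spp1 (osteopontin) was lower by a log2 difference of -2.41, as were the hyaluronan-binding Hmmr (-0.71) and Cd74 (-0.42). Esrp1 (0.14) and Esrp2 (-0.08), the splicing factors that favour the epithelial variants of Cd44, did not pass the threshold.

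Among the partners and proteases of Epcam all 13 were tested, with 5 higher, 2 lower and 6 not past the threshold (median log2 difference 0.04). Spint2 (0.77), the gamma-secretase subunit Ncstn (0.69) and St14 (0.37), the protease matriptase, were higher. Spint1 (-0.58) and Ctnnb1 (-0.56) were lower.

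Of the genes around Procr (11 listed, 9 tested), 5 were higher and 4 did not pass the threshold, with a median log2 difference of 0.61. Gas6, a ligand of the TAM receptors, differed most, by 6.04 (13.93 against 7.89 in group means, adjusted p = 7.2e-05). The coagulation initiator F3 (1.95), Anxa5 (1.57), the protein C cofactor Pros1 (0.94) and the thrombin receptor F2r (0.61) were higher as well. Proc (-0.03), Thbd (0.22), F2rl1 (-0.09) and Tfpi (-0.08), protein C itself among them, did not pass the threshold.

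**Figure D4:**
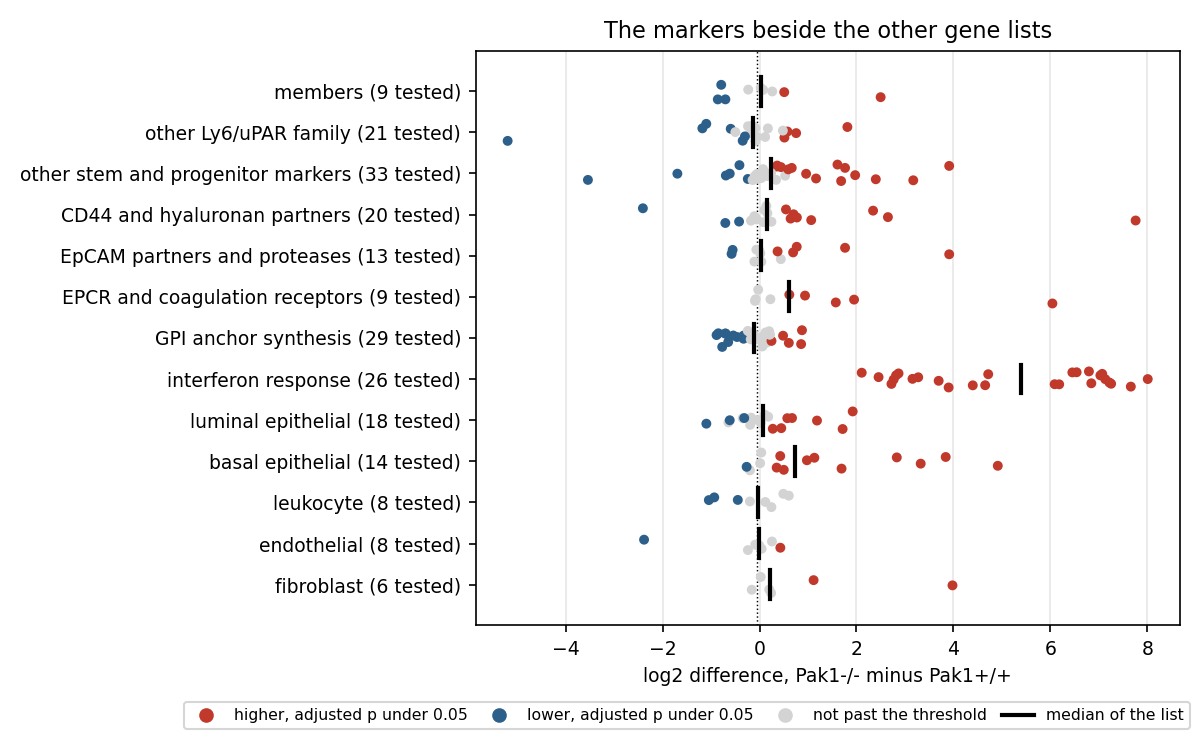
Log2 difference (horizontal axis, Pak1-/- minus Pak1+/+) of every tested gene in each list, 1 point per gene, red for genes called higher and blue for genes called lower; black bars are list medians and the dotted line is the median of all 22006 genes (-0.05). The markers lie between -0.86 and 2.50 with a median of 0.02 (the saturated Ly6e included), and every interferon response gene lies above 2.

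Since these markers are also used to tell cell types apart, lists of defining genes were read on the same arrays. The luminal list (18 of 19 tested) had 7 genes higher and 3 lower, and its summed log2 intensity was 20.25 and 20.28 in the Pak1-/- cells and 20.14 and 20.12 in the Pak1+/+ cells. The basal list (14 of 15 tested) had 10 genes higher and 1 lower, and summed to 17.99 and 17.80 against 17.10 and 17.13. Krt8 and Krt18, the defining keratins of luminal epithelium, averaged 18.68 and 18.86 in the Pak1-/- cells and 18.11 and 18.59 in the Pak1+/+ cells, while Krt7 was lower (16.48 against 17.58) and Krt19 did not pass the threshold (6.99 against 7.64).

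Genes of other cell types were in part dim and in part well above background. Of 19 leukocyte genes 9 were dim on all arrays, namely Cd3d, Cd2, Ms4a1, Itgax, Fcgr3, Lyz2, Cd53, Laptm5 and Tyrobp, and 8 could be tested. Adgre1 (log2 difference -1.05), Coro1a (-0.93) and Ptprc (-0.45) were lower, while Itgam (0.49), Cd3e (0.25), Csf1r (0.12) and Cd68 (-0.20) did not pass the threshold, nor did Cd52, which was not well above background in the Pak1+/+ cells. The list summed to 16.20 and 15.68 in the Pak1-/- cells and 15.57 and 15.43 in the Pak1+/+ cells. Most of that sum was Itgam, which read 16.07 and 15.51 in the Pak1-/- cells and 15.39 and 15.20 in the Pak1+/+ cells. The endothelial genes Tek, Tie1, Emcn and Cldn5 were dim on all arrays, Kdr averaged 13.17 and 13.13, and that list summed to 13.49 and 13.45 against 13.49 and 13.70, with 1 gene higher and 1 lower of 8 tested.

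The fibroblast genes Pdgfrb, Col3a1, Dcn, Lum and Dpt were dim on all arrays. Of the 6 tested, Col1a1 was higher (log2 difference 1.12) and Postn at least 10.4-fold higher, while Pdgfra (-0.16), Col1a2 (0.03) and Fap (0.24) did not pass the threshold, nor did Fbln1, which was not well above background in the Pak1+/+ cells. That list summed to 11.72 and 11.08 in the Pak1-/- cells and 10.65 and 10.01 in the Pak1+/+ cells. The part that a different mix of basal and luminal cells has in the differences of Prom1, Procr, Cd44, Ly6a and Ly6c1 was not tested. In bulk samples fewer cells that express a gene and less RNA per cell cannot be told apart.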

How the data were processed

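RNA of 4 mouse samples was hybridised to a single-colour (Cy3) Agilent array. Each deposited scanner file gives the intensity of every spot on a linear scale, made per the file headers with Feature Extraction 9.5.3.1 and not normalized between arrays. The authors also deposited log2 values of these arrays, normexp corrected and quantile normalized per their methods, which served as an alternative and hold no value for Ly6e. Here, normexp (offset 50) was run on all spots in limma 3.58.1 (R 4.3.3), the 43020 non-control spots were quantile normalized on the log2 scale, outlier spots were set aside, and spots were averaged to 39429 probes. The 27229 probes (69.1%) well above background on at least 2 arrays were compared with lmFit and eBayes (moderated test, two-sided, genotype only), with Benjamini-Hochberg adjustment over all of them at 0.05. The fit had 2 residual and 2.62 prior degrees of freedom. With 2 arrays a group, 0.333 is the smallest p an exact permutation can reach, so none was run. The number of arrays limits the precision, and the offset understates changes of dim probes.

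For a probe that was not well above background on either array of a group, "at least N-fold" is given: the brighter group's mean over a floor for the dimmer group. On each array this floor is the lowest normalized value seen among probes above background, or the probe's own value where that was higher, averaged over the arrays of the group. Genes were named through RefSeq (GRCm38.p6 table, names only), which matched 26055 of the 32334 probes with a RefSeq accession. The brightest probe by mean over the 4 arrays stands for a gene. Probe positions are those of the files (mm9). A list's summed intensity adds the linear intensities of its genes' probes before taking log2. The p-values measure the spread between cells of 2 tumours a group.

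The markers and the gene lists were chosen with earlier results of these data known, so that counts over lists are descriptions. Named were all markers with every probe, Pak1, every gene of the chromosome 15 Ly6 cluster, and of each other list up to 4 genes a direction with the largest change past the threshold among those above background on 4 arrays, plus any bound of at least 8-fold. Further genes were named after their values were seen, where a count was 5 or fewer or where a list's sum rested on them. So were Aldh1a3, Esrp1, Esrp2, Has2, Kdr, Krt18, Krt19 and Mmp14. One gene that this rule names is not reported here. For the cell type lists the report names fewer, and the others are in the closing section. The alternatives were other offsets, scalings, filters and variance models, the deposited log2 values, a replicate block, each array left out, stricter thresholds and the mean over a gene's probes. The fit was tested on simulated data. Pairs of samples with the same number did not deviate together (r = -0.03 between their replicate differences).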

Additional observations from a re-analysis of the deposited data

How the results depend on the processing

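On the brightest probe or the mean over probes, Prom1, Procr, Cd44, Ly6a and Ly6c1 kept their directions under every alternative fit. Their calls at an adjusted p under 0.05 were kept too. The directions also held with each array left out. Every call lost under an alternative was on a dimmer probe of Cd44 or Prom1. Over the marker probes, and the means over probes of Cd44, Ly6c1 and Prom1, 178 values kept their direction and their side of the threshold, 7 newly passed it, 10 no longer passed and 3 changed sign. Those that changed sign were Ly6d without Pak1+/+ replicate 2 (-0.022, with 0.070 the highest value with 1 array left out) and Ly6e on processed signals (-0.10) and on normexp values (-0.081) scaled to the 75th percentile of each array. The count of markers called higher was 2, and was 4 after cyclic loess, beside 3 lower, though the 2 added were Cd24a and the saturated Ly6e, of which nothing can be read, and 1 with at least a 2-fold difference required. The count called lower was 3, was 4 under 4 alternatives that added Epcam (both scalings to the 75th percentile, the filter on all 4 arrays, and eBayes with trend and robust), and was 0 with at least a 2-fold difference required. Over all probes, 14132 passed, 8878 at an adjusted p under 0.01 and 3413 with at least a 2-fold difference. With each array left out in turn, 10314 to 12172 probes passed, with 2 to 3 markers higher and 3 in each case lower. The cause of these differences was not tested. A fit with the replicate block passed 13211 probes, 2 markers higher and 3 lower, and among the marker probes it ended only the call of the Cd44 probe at chr2:102654278-102654337 (adjusted p = 0.054). The replicates share only a number, since nothing ties a numbered Pak1-/- tumour to a Pak1+/+ tumour. Thy1 lay at background and Ly6e at saturation, so the arrays limit what can be said of both.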

Other observations

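The epithelial lists held differences beyond the markers. Of the luminal genes measured on every array, the pioneer factor Foxa1 (log2 difference 1.71), Cdh1 (1.19), Ehf (0.67) and the keratin Krt8 (0.57) were higher in the Pak1-/- cells, and Krt7 (-1.10), Kit (-0.61) and Elf3 (-0.32) were lower. Of the basal genes, Krt17 (4.92), the oxytocin receptor Oxtr (3.84), the matrix protein Sparc (3.32) and Krt14 (2.83) were higher, and Jag2 (-0.27) was lower.

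Among the endothelial genes, the VEGF receptor Flt1 (-2.38) was lower in the Pak1-/- cells. Robo4 was called higher, by at least 1.35-fold, since it was not well above background in the Pak1+/+ cells.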
